A study of Homo sapiens with 18 samples.

Results

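The globin genes are the 10 human genes that encode the alpha-like and beta-like chains of hemoglobin: HBZ, HBM, HBA2, HBA1 and HBQ1 on chromosome 16, and HBE1, HBG2, HBG1, HBD and HBB on chromosome 11. Each member was found by its symbol, and all 10 had a value in every library, out of 26249 genes listed. The family was chosen by its FPKM in DMSO, where several members stood high in XG1 cells and low in AMO1 cells, so that contrast is described here without a test. The responses to the drug are tested. Tests against DMSO use the same DMSO libraries, so they are not independent of the choice. Such a choice can favour decreases in XG1 and increases in AMO1.

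RNA was measured in XG1 and AMO1, cell lines that the labels call multiple myeloma, a cancer of plasma cells. Cells were held for 24 h in DMSO, the solvent, or in 100 nM or 1000 nM of YKL-5-124, an inhibitor of CDK7. CDK7 is the kinase of the general transcription factor TFIIH and also activates the cell cycle kinases. The 6 groups were XG1 in DMSO, at 100 nM and at 1000 nM, and AMO1 in DMSO, at 100 nM and at 1000 nM, with 3 libraries each and 18 in all. No genotype or further agent is given for either line. Values are deposited as FPKM, by name reads per gene scaled by gene length and library size, from 3′ end libraries. Near-equal sums of the spike-in RNAs point to a further rescaling by them, which is inferred and not stated. Replicates carry numbers in the labels, with nothing on whether each was its own culture, so p-values measure only the spread between these samples.

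Hemoglobin is a tetramer that carries oxygen in red cells, built from a pair of alpha-like and a pair of beta-like chains. The genes of each cluster lie in the order in which development uses them: HBZ and HBE1 serve the embryo, HBG1 and HBG2 pair with alpha chains in the fetus, and HBB with a little HBD takes over after birth, while HBA1 and HBA2 serve from the fetus onward. Distant enhancers drive each cluster in erythroid cells, and the repressors BCL11A and ZBTB7A silence the fetal genes in the adult. Plasma cells are not known for globin expression.

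Promoter sequences are shown for HBD, the member with the largest decrease in XG1, and for HBM, the member with the lowest level in XG1, the members found in the RefSeq promoter table (GRCh38.p14). Each run is the 250 bases before the annotated start, 5′ to 3′ along the gene. Capitals mark matches on either strand to the letters GATAA (bound by GATA factors), CCAAT (common in promoters), CACCC (the box that KLF1 binds in HBB) and ATAAA (resembling the core promoter element where transcription complexes form).
HBD: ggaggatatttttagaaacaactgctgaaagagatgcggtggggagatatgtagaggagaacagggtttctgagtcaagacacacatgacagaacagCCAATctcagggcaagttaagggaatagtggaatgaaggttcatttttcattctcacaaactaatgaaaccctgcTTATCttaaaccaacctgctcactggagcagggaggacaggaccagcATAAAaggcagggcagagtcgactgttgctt
HBM: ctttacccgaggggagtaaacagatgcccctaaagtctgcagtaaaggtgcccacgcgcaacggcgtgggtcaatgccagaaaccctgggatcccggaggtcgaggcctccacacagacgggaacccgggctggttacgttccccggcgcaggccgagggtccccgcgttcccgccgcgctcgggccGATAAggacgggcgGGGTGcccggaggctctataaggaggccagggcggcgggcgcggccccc
The HBD run lies at chr11:5234484-5234733 on the minus strand, and holds CCAAT at -153, GATAA on its other strand at -78 and ATAAA at -31, counted in bases from the start. The HBM run lies at chr16:165728-165977 on the plus strand, and holds GATAA at -63 and CACCC on its other strand at -49. No match overlapped another. Of 35116 human promoters of the same length in the table, 20.4% held GATAA, 32% CCAAT, 54.7% CACCC and 32.7% ATAAA. The letters CACCC were not in the HBD window.

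The labels of the 2 lines were set against marker lists before the results. In DMSO, 5 of 10 plasma cell markers averaged at least 1 FPKM in XG1, with a summed level of 91.6 to 145 FPKM, against 10 of 10 in AMO1, with 8363 to 9397 FPKM. Of 12 erythroid markers, 10 reached that level in XG1 (sum 1831 to 1955 FPKM) and 3 in AMO1 (371 to 438 FPKM). In AMO1, GATA1, AHSP, ALAS2 and SLC4A1 stood near the commonest value of each library, its floor. The plasma cell markers thus went against the label of XG1, and the libraries are called XG1 here only as labelled. The erythroid set was not complete in them either, since SLC4A1, the red cell anion exchanger, stood at the floor in all 3. Of 5 megakaryocyte markers, 3 reached 1 FPKM in XG1 in DMSO (33.5 to 49.4 FPKM) and 1 in AMO1 (4.60 to 5.44 FPKM). Of 6 myeloid markers, 3 did so in XG1 (121 to 147 FPKM) and 0 in AMO1 (0.622 to 1.41 FPKM).

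Several features of the values touch what follows. Summed FPKM of the 92 spike-in RNAs ran from 166717 to 187657 across libraries, while the sum over genes fell with dose: in XG1 it was 1221590 to 1425717 in DMSO, 994329 to 1146629 at 100 nM and 902520 to 1036930 at 1000 nM. In AMO1 it was 1442943 to 1553906, 919237 to 983439 and 431965 to 686266. Changes were therefore fitted on the deposited scale and relative to the median gene (the relative scale). Where no scale is named, a change is on the deposited scale and still holds the general decrease. The median tested gene moved by log2 -0.15 at both doses in XG1, and by -0.35 and -0.77 in AMO1. The files hold no zeros, and genes with no signal cluster near a floor, whose commonest value ran from 0.0711 to 0.158 FPKM between libraries, with some genes a little above or below it. In XG1 the second 100 nM library stood apart on the second principal component (loading 0.82, 16.3% of the variance). The third 100 nM library had a loading of -0.47 on it. That library had 10665 genes at or under its floor value, against 5139 to 6027 in the other XG1 libraries.

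Before any drug, the libraries labelled XG1 carried globin RNA of every developmental class, and the fetal genes led. The 10 genes summed to 3571 to 3948 FPKM in XG1, 0.277% to 0.296% of all gene FPKM, against 107 to 131 FPKM in AMO1, 0.00689% to 0.00843%. Within XG1 the order was HBG1, HBG2, HBA2, then HBZ and HBD, then HBQ1, HBA1 and HBE1, then HBB, then HBM. The ranges of HBZ and HBD overlapped, as did those of HBQ1 and HBA1 and of HBA1 and HBE1, so the order within those sets is not resolved. HBB, the main beta chain of adults, was the lowest of the 5 beta-like genes. Levels of different genes are compared here per length, although a 3′ library gives about 1 fragment per transcript whatever its length. The annotated transcripts of the members are of similar length, 506 to 785 bases. In AMO1 the family came down to HBE1, with HBD and traces of HBG2, HBG1 and HBB, while HBZ, HBM and HBQ1 did not pass 0.409 FPKM in any library and HBA2 and HBA1 did not pass 0.797 FPKM.

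**Figure D1:**
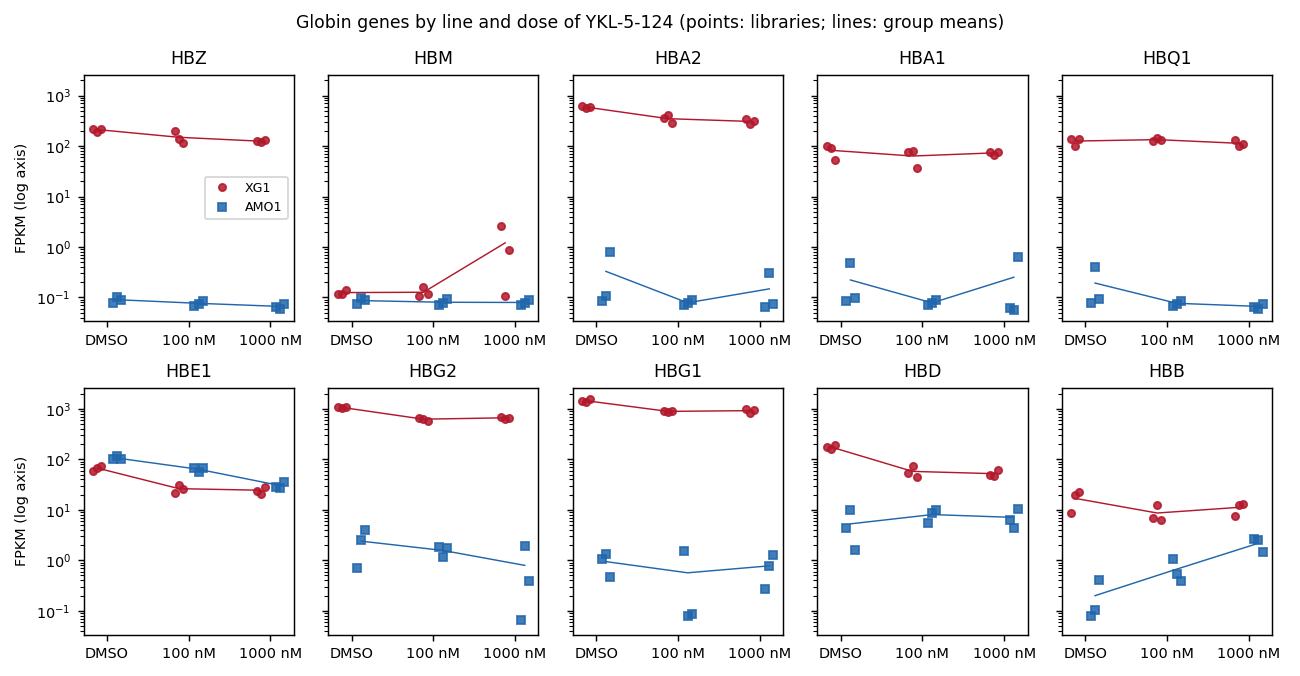
FPKM (log axis) of the 10 globin genes in every library by dose of YKL-5-124, with XG1 as circles and AMO1 as squares and lines through the group means. HBE1 is the only panel in which the AMO1 squares in DMSO (99.3 to 116 FPKM) lie above the XG1 circles (59.3 to 74.2 FPKM), and HBD and HBE1 show the largest drops from DMSO in XG1.

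The inhibitor lowered 5 of the 9 tested members in XG1 at 100 nM and 6 of 9 at 1000 nM, and raised none. HBM was under the filter of 1 FPKM in at least 3 of the line's libraries and was not tested. The comparisons of both doses use the same DMSO libraries, those through which the family was chosen. These counts are therefore not independent of that choice. At 100 nM 10.0% of all 11810 tested genes fell and 2.48% rose, and at 1000 nM 13.2% fell and 3.69% rose (limma moderated test, Benjamini-Hochberg adjusted p under 0.05 over all tested genes). On the relative scale 5 and 6 members fell and none rose, where 7.25% and 10.3% of all genes fell and 7.32% and 9.59% rose. The members' median change was log2 -0.77 at 100 nM and -0.69 at 1000 nM, against -0.15 over all tested genes at each dose. The treated libraries lay wholly under the DMSO libraries for 5 and 6 of 9 members, against 24.6% and 30.1% of all genes. Without the second 100 nM library, 5 members still fell at 100 nM, with HBD at log2 -1.83 and HBE1 at -1.47. With any single library left out, the third 100 nM library included, 5 to 6 members were called at 100 nM. In bulk RNA, fewer cells that carry globin RNA and less globin RNA per cell cannot be told apart.

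Summed levels of some marker lists also differed between the XG1 groups, though the myeloid and plasma cell sums mainly follow few genes. In DMSO, at 100 nM and at 1000 nM the myeloid list summed to 121 to 147, 72.5 to 89.5 and 89.9 to 108 FPKM, and the plasma cell list to 91.6 to 145, 67.7 to 126 and 64.5 to 72.8 FPKM. Most of the myeloid sum was ITGAM, which averaged 71.7, 39.2 and 37.6 FPKM, and CD33, which averaged 47.2, 34.9 and 52.2 FPKM. Most of the plasma cell sum was XBP1, which averaged 82.6, 53.0 and 47.6 FPKM, and SDC1, which averaged 24.2, 30.9 and 12.2 FPKM. The T and NK cell list, with 1 of 6 genes at 1 FPKM and CD3D and CD3E at the floor, summed to 40.4 to 58.7, 31.5 to 46.7 and 33.4 to 45.8 FPKM. The B cell list stayed between 4.59 and 8.44 FPKM. Their part in the globin changes was not tested.

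HBG1 and HBG2 encode the gamma chains of fetal hemoglobin and made up most of the globin RNA in XG1. HBG1 stood at 1444, 1337 and 1563 FPKM in DMSO, at 916, 867 and 889 FPKM at 100 nM and at 984, 834 and 945 FPKM at 1000 nM. All 6 treated libraries lay under all 3 DMSO libraries, and the doses overlapped. HBG1 fell by log2 0.70 at 100 nM (SE 0.11, adjusted p = 0.0037) and by 0.65 at 1000 nM (SE 0.11, adjusted p = 0.0028), or by 0.50 and 0.47 on the relative scale (adjusted p = 0.019 and 0.018). HBG2 stood at 1091, 1027 and 1090 FPKM in DMSO, at 667, 628 and 578 FPKM at 100 nM and at 701, 633 and 660 FPKM at 1000 nM. The same pattern held for HBG2, with no overlap between treated and DMSO libraries. HBG2 fell by log2 0.78 (SE 0.11, adjusted p = 0.0018) and by 0.69 (SE 0.11, adjusted p = 0.0016). When the 9 AMO1 libraries shared the estimate of spread, neither gene passed: adjusted p was 0.0981 and 0.111 for HBG1 and 0.127 and 0.17 for HBG2 at 100 nM and 1000 nM.

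The gamma genes are near-identical copies, so the split of reads between them is uncertain. Their coding sequences differ at 2 of 444 bases in the GENCODE transcripts used here. Of the 251 windows of 50 bases in the last 300 bases of HBG2, 130 occur in HBG1, and 0 of the 251 in HBG1 occur in HBG2. The annotated transcripts have 779 bases for HBG1 and 614 for HBG2, and their last 300 bases are different stretches. The 0 thus does not mean that HBG1 shares no sequence with HBG2. The ratio of HBG1 to HBG2 ran from 1.30 to 1.43 in DMSO, 1.37 to 1.54 at 100 nM and 1.32 to 1.43 at 1000 nM. This ratio depends on how shared reads were split, so it cannot show that each copy moved by itself. With the copies summed, the decrease was called at both doses.

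HBE1, the beta-like gene of the embryo, was low next to the gamma genes in XG1, and its fitted decrease was larger. It stood at 59.3, 68.1 and 74.2 FPKM in DMSO, at 21.1, 31.6 and 26.1 FPKM at 100 nM and at 24.1, 20.3 and 28.9 FPKM at 1000 nM. The treated libraries held less than the lowest DMSO library in all 6 cases. The group means at 100 nM and 1000 nM were 39.1% and 36.3% of DMSO. HBE1 fell by log2 1.34 at 100 nM (SE 0.18, 95% interval -1.74 to -0.93, adjusted p = 0.0019) and by 1.43 at 1000 nM (SE 0.18, -1.84 to -1.03, adjusted p = 0.00064). The relative changes were -1.14 and -1.25, also called. HBE1 and HBG2 overlap on the same strand in GENCODE, so reads at these genes may be shared.

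HBD, which gives the delta chain of the minor adult hemoglobin, had the largest decrease of the tested members in XG1. It stood at 173, 161 and 194 FPKM in DMSO, at 52.9, 75.3 and 44.9 FPKM at 100 nM and at 48.1, 47.7 and 60.1 FPKM at 1000 nM. Every treated library lay under every DMSO library. HBD fell by log2 1.62 at 100 nM (SE 0.18, 95% interval -2.03 to -1.22, adjusted p = 0.00066) and by 1.74 at 1000 nM (SE 0.18, -2.15 to -1.34, adjusted p = 0.00023). The intervals of HBD lie below those of HBG1 and HBG2 at both doses, though the difference between these genes was not itself tested.

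HBB, the main adult beta chain, was low and uneven. It stood at 8.68, 19.4 and 22.4 FPKM in DMSO, at 6.91, 12.6 and 6.42 FPKM at 100 nM and at 7.56, 12.7 and 13.3 FPKM at 1000 nM. The groups overlapped at both doses, and the changes of log2 -0.84 (95% interval -1.62 to -0.07, adjusted p = 0.14) and -0.48 (-1.26 to 0.29, adjusted p = 0.395) did not pass. Without the first DMSO library, the lowest of that group, the change at 100 nM was -1.23 with adjusted p = 0.0437. HBD and HBB differ at 32 of 444 coding bases and share no 50-base window in their last 300 bases. Their ratio, HBD over HBB, ran from 8.32 to 19.9 in DMSO, 5.97 to 7.66 at 100 nM and 3.75 to 6.37 at 1000 nM.

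**Figure D2:**
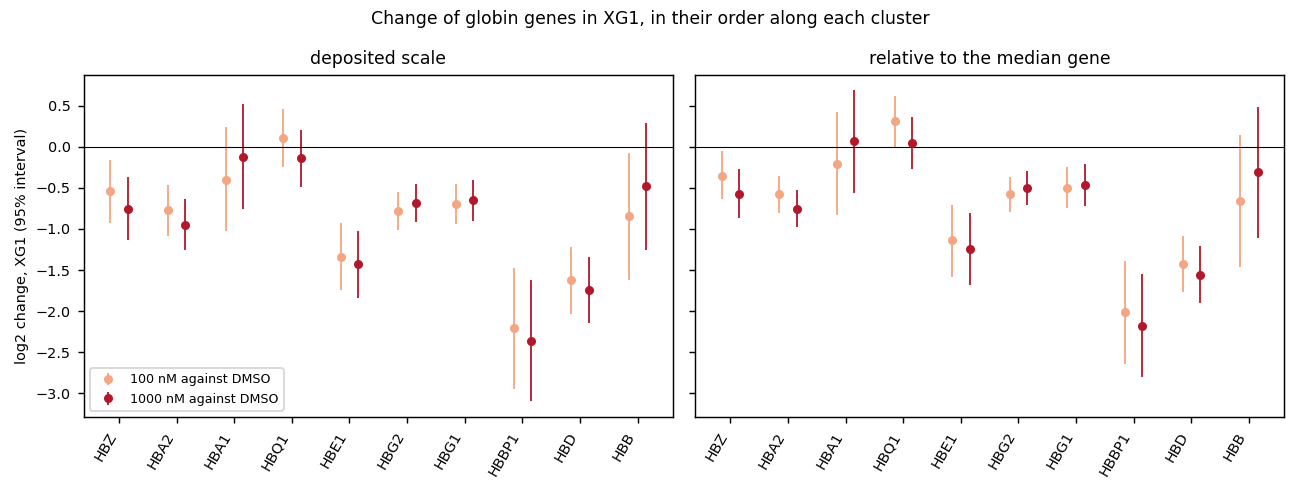
Log2 change in XG1 with its 95% interval for the tested globin genes and the pseudogene HBBP1, in their order along each cluster, at 100 nM (light) and 1000 nM (dark) against DMSO, on the deposited scale (left) and relative to the median gene (right). HBE1 (-1.34 and -1.43), HBBP1 (-2.21 and -2.36) and HBD (-1.62 and -1.74) lie lowest on both panels, and HBQ1 and HBA1 lie nearest 0.

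Of the alpha-like genes in XG1, HBA2 fell at both doses and HBZ at the higher dose, while HBA1 and HBQ1 did not pass. HBA2, the more active of the adult alpha genes, stood at 608, 574 and 589 FPKM in DMSO, at 356, 405 and 284 FPKM at 100 nM and at 343, 271 and 308 FPKM at 1000 nM. The treated and DMSO libraries did not overlap. HBA2 fell by log2 0.77 at 100 nM (SE 0.14, adjusted p = 0.0071) and by 0.95 at 1000 nM (SE 0.14, adjusted p = 0.0015), and by 0.58 and 0.76 on the relative scale. HBA1, which encodes the same protein, stood at 101, 92.4 and 53.7 FPKM in DMSO, at 75.2, 78.3 and 36.7 FPKM at 100 nM and at 74.6, 67.6 and 77.6 FPKM at 1000 nM. The groups of HBA1 overlapped, with changes of -0.40 (95% interval -1.03 to 0.24, adjusted p = 0.394) and -0.12 (-0.76 to 0.52, adjusted p = 0.825).

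How reads were split between the alpha copies is uncertain, and its part in their contrast was not tested. Their coding sequences are identical over 429 bases, and 154 of the 251 windows of 50 bases in the last 300 bases of HBA1 occur in HBA2. The ratio of HBA2 to HBA1 ran from 6 to 11 in DMSO, 4.73 to 7.72 at 100 nM and 3.97 to 4.60 at 1000 nM. With the copies summed, the alpha genes fell by log2 0.73 at 100 nM (adjusted p = 0.0123) and by 0.82 at 1000 nM (adjusted p = 0.00438).

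HBZ, the embryonic alpha-like chain zeta, stood at 222, 193 and 221 FPKM in DMSO, at 196, 138 and 113 FPKM at 100 nM and at 125, 119 and 130 FPKM at 1000 nM. The 100 nM libraries overlapped those in DMSO and the 1000 nM libraries did not. The change was -0.54 at 100 nM (SE 0.18, adjusted p = 0.066), and HBZ fell by log2 0.76 at 1000 nM (SE 0.18, adjusted p = 0.014). That call was lost without the first DMSO library (adjusted p = 0.0513), the third DMSO library (0.0541) or the second 1000 nM library (0.0512). At 100 nM the change became a call without the first treated library (-0.76, adjusted p = 0.00561) or with all 18 libraries in the estimate of spread (adjusted p = 0.0346).

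HBQ1, the theta gene, whose protein has no known place in hemoglobin, stood at 136, 99.2 and 141 FPKM in DMSO, at 125, 144 and 133 FPKM at 100 nM and at 131, 99.9 and 109 FPKM at 1000 nM. The 3 groups overlapped. Its changes were 0.11 (95% interval -0.24 to 0.46, adjusted p = 0.685) and -0.14 (-0.49 to 0.21, adjusted p = 0.611), so a decrease of the size seen for HBD lies outside both intervals. HBM, the mu gene, sat at the floor in every DMSO and 100 nM library of XG1 and stood at 2.64, 0.107 and 0.872 FPKM at 1000 nM. HBM overlaps HBZ on the same strand in GENCODE, so reads at the 2 genes may be shared.

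None of the 9 members was called between the doses in XG1, where 0.322% of all tested genes fell and 0.0677% rose at 1000 nM against 100 nM. The members' changes between the doses ran from log2 -0.25 to 0.36.

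Because the classes did not change by the same amount, the make-up of globin RNA in XG1 differed between DMSO and drug. The fetal genes gave 90.6% ± 0.616 of beta-like FPKM in DMSO, 94.2% ± 1.42 at 100 nM and 94.8% ± 0.739 at 1000 nM (SD, n = 3 each). The adult genes HBD and HBB gave 6.93% ± 0.406, 4.12% ± 1.15 and 3.79% ± 0.581. Embryonic HBE1 gave 2.42% ± 0.249, 1.64% ± 0.346 and 1.46% ± 0.209. For all 3 classes the ranges of the treated groups lay apart from the range in DMSO and overlapped each other. The shares are described with no test, and any reads shared between HBE1 and HBG2 would touch them.

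Among the alpha-like genes, HBA1 and HBA2 together gave 66.6% ± 2.80 in DMSO, 59.0% ± 3.57 at 100 nM and 61.4% ± 0.585 at 1000 nM (SD, n = 3 each). HBZ gave 21.0% ± 0.952, 21.3% ± 4.16 and 20.2% ± 1.53, with overlapping ranges. HBQ1 gave 12.4% ± 1.88, 19.7% ± 3.52 and 18.2% ± 1.01. The share of the embryonic gene thus overlapped between DMSO and drug in the alpha-like family and not in the beta-like family. Summed over the family, globin FPKM in XG1 was 3788 ± 194 in DMSO, 2302 ± 167 at 100 nM and 2293 ± 171 at 1000 nM.

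**Figure D3:**
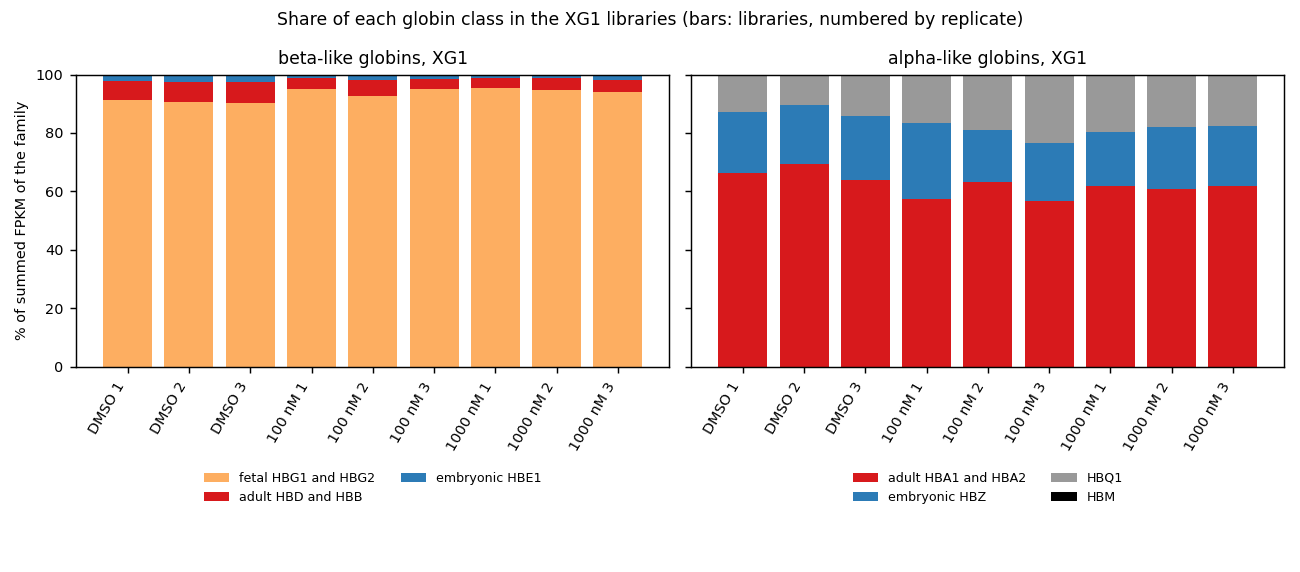
Share of each globin class in the summed FPKM of the beta-like (left) and alpha-like (right) families, in %, with a bar for each XG1 library. The fetal share is 92.6% to 95.5% with drug and 90.1% to 91.3% in DMSO, and HBM is too small to see.

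In AMO1 the embryonic gene HBE1 carried most of the globin RNA at every dose, and it fell with dose. HBE1 stood at 103, 116 and 99.3 FPKM in DMSO, at 68.4, 55.5 and 66.8 FPKM at 100 nM and at 28.0, 27.4 and 35.2 FPKM at 1000 nM. The 3 groups did not overlap, and 51.2% and 68.6% of all tested genes likewise lay wholly lower at 100 nM and 1000 nM than in DMSO. In DMSO HBE1 averaged 67.2 ± 7.48 FPKM in XG1 and 106 ± 8.49 FPKM in AMO1 (SD, n = 3 each), the reverse of the contrast for which the family was chosen. HBE1 fell by log2 0.73 at 100 nM (SE 0.19, adjusted p = 0.012), fell by 1.78 at 1000 nM (SE 0.19, 95% interval -2.20 to -1.37, adjusted p = 4.3e-06), and fell by 1.05 at 1000 nM against 100 nM (SE 0.19, adjusted p = 0.0057). The general decrease in AMO1 took up part of this: relative to the median gene the changes were -0.30 (adjusted p = 0.142), -0.82 (adjusted p = 0.0012) and -0.52 (adjusted p = 0.0656). The call at 100 nM was lost without the second DMSO library (adjusted p = 0.0667) or the second 100 nM library (0.0746). The call at 1000 nM held under all 18 alternatives, the removal of the second 1000 nM library with its low total included. Erythroid markers in AMO1 summed to 371 to 438 FPKM in DMSO, 204 to 213 at 100 nM and 100 to 167 at 1000 nM. Most of that was GYPC, which averaged 331, 176 and 127 FPKM. Plasma cell markers summed to 8363 to 9397, 9968 to 10714 and 5256 to 8166 FPKM. Most of that was SDC1, which averaged 5067, 7801 and 5468 FPKM, while JCHAIN, next in level, averaged 1924, 1209 and 847 FPKM. The sums thus mainly follow single genes. The part of such markers in the decrease of HBE1 was not tested.

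HBE1 was the only member to fall in AMO1 at 100 nM among the 5 that passed the filter, where 29.5% of all 10503 tested genes fell and 2.73% rose. At 1000 nM 2 of 5 fell and 1 rose, where 65.7% of all genes fell and 2.51% rose. Between the doses 1 of 5 fell and 1 rose, where 23.4% and 0.209% of all genes did. On the relative scale 0 of 5 were called at 100 nM, where 17.0% of all genes fell and 14.2% rose. At 1000 nM 1 fell and 2 rose (24.1% and 24.9% of all genes), and between the doses 0 fell and 1 rose (4.22% and 1.84%). Over all tested genes the median change at 1000 nM on the deposited scale was log2 -0.77. HBE1 was the member that fell between the doses. The counts of rises include HBB, which passed the filter only through its treated libraries, so nothing is read from them. HBG2, HBG1 and HBB had no library above 4 FPKM.

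HBD was the other member above the floor in every AMO1 library. It stood at 4.28, 9.91 and 1.63 FPKM in DMSO, at 5.59, 8.59 and 9.97 FPKM at 100 nM and at 6.32, 4.30 and 10.6 FPKM at 1000 nM. The groups overlapped, and the changes of log2 0.73 (95% interval -0.15 to 1.61, adjusted p = 0.187) and 0.52 (-0.36 to 1.40, adjusted p = 0.27) did not pass. Relative to the median gene HBD rose by 1.33 at 1000 nM (adjusted p = 0.017). Without the second DMSO library, the highest of that group, HBD was called higher on the deposited scale too, by 1.25 at 100 nM and 1.04 at 1000 nM.

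HBB stood at 0.0787, 0.103 and 0.416 FPKM in AMO1 in DMSO, at 1.07, 0.543 and 0.392 FPKM at 100 nM and at 2.63, 2.47 and 1.43 FPKM at 1000 nM. All 1000 nM libraries lay above the others, at low levels. HBB reached 1 FPKM in AMO1 only with drug, so it was tested only through the groups where it was high, and these levels are given as a description with no test. HBG2 stood at 0.698, 2.48 and 4 FPKM in DMSO, at 1.80, 1.14 and 1.76 FPKM at 100 nM and at 0.0646, 1.93 and 0.385 FPKM at 1000 nM. HBG2 fell by 0.92 at 1000 nM (SE 0.38, adjusted p = 0.042), a call that did not hold on the relative scale (-0.37, adjusted p = 0.576), with no filter on low values (0.232), with the gamma copies summed (0.0555), or without DMSO replicate 2 or 3 (0.0984 and 0.167) or 1000 nM replicate 1 or 3 (0.165 and 0.102). HBG1 did not pass 1.53 FPKM in AMO1, and its changes of -0.41 and -0.14 did not pass (adjusted p = 0.335 and 0.696). Without the first 100 nM library, the highest of its group, the change at 100 nM was -0.82 with adjusted p = 0.0342.

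The share of HBE1 in beta-like FPKM of AMO1 was 92.5% ± 2.78 in DMSO, 85.3% ± 1.65 at 100 nM and 73.8% ± 1.56 at 1000 nM (SD, n = 3 each), and that of HBD and HBB together 4.56% ± 2.95, 11.8% ± 2.92 and 22.3% ± 3.41. The ranges of the HBE1 share did not overlap between the 3 doses. The sum over the family was 116 ± 12.9, 74.8 ± 7.44 and 41.6 ± 7.10 FPKM. The annotated span of HBE1 overlaps that of HBG2 on the same strand in GENCODE, so reads at these genes may be shared in AMO1 too. It also overlaps olfactory receptor genes on that strand. OR51B4 and OR51B5 among them, looked up after their values were seen, did not pass 1.22 and 1.43 FPKM in any AMO1 library.

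The responses of HBE1 and HBD were compared between the lines in a fit of all 18 libraries, a comparison added after the values were seen. The log2 change of HBD was lower in XG1 than in AMO1, with a difference of -2.35 at 100 nM (SE 0.54, 95% interval -3.50 to -1.21, adjusted p = 0.0151) and -2.27 at 1000 nM (SE 0.54, -3.41 to -1.12, adjusted p = 0.0048). Lower responses in XG1 were called for 0.86% and 1.5% of 12792 tested genes. On the relative scale they were called for 3.08% and 6.5% of 12855 tested genes. This comparison uses the DMSO libraries through which the family was chosen, so it is not independent of that choice. For HBE1 the difference was -0.60 at 100 nM (-1.12 to -0.09, adjusted p = 0.168) and 0.35 at 1000 nM (-0.16 to 0.87, adjusted p = 0.275). On the relative scale the difference for HBE1 at 1000 nM had the other sign (-0.43, -0.97 to 0.12, adjusted p = 0.297), so no direction can be given for it.

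Of 38 genes listed as regulators of globin expression, 36 were tested in XG1. At 100 nM 4 fell and 0 rose, and at 1000 nM 6 fell and 1 rose, where 10.0% and 13.2% of all tested genes fell and 2.48% and 3.69% rose. Relative to the median gene 4 fell and 2 rose at 100 nM, and 5 fell and 5 rose at 1000 nM, where 7.25% and 10.3% of all genes fell and 7.32% and 9.59% rose. The median change was -0.27 and -0.22 on the deposited scale, against -0.15 over all genes. KLF1, the erythroid activator of HBB, had the largest decrease among the named regulators at 1000 nM. It averaged 99.6 ± 11.5 FPKM in DMSO, 49.1 ± 4.58 at 100 nM and 29.9 ± 2.34 at 1000 nM (SD, n = 3 each). KLF1 fell by log2 1.01 (SE 0.14, adjusted p = 0.0019) and fell by 1.7 (SE 0.14, adjusted p = 5.5e-05), and by 0.81 and 1.52 on the relative scale. KLF1 is also among the erythroid markers, whose summed level was 1831 to 1955 FPKM in DMSO, 1323 to 1916 at 100 nM and 1652 to 1827 at 1000 nM. Most of that sum was GYPB, which averaged 1302, 1217 and 1253 FPKM. The part of a change in cell make-up in the globin decreases was not tested.

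GATA2, a factor of early blood progenitors, averaged 59.2 ± 5.58 FPKM in DMSO, 76.4 ± 17.3 at 100 nM and 115 ± 14.2 at 1000 nM. GATA2 rose by log2 0.94 at 1000 nM (SE 0.17, adjusted p = 0.0044). GATA1, the master regulator of erythroid genes, averaged 30.9 ± 0.549, 30.6 ± 8.19 and 43.3 ± 8.13 FPKM, a change of 0.46 at 1000 nM (adjusted p = 0.139) that passed only on the relative scale (0.64, adjusted p = 0.019). Megakaryocyte markers, which share GATA factors with erythroid cells, summed to 33.5 to 49.4 FPKM in DMSO, 57.6 to 95.3 at 100 nM and 54.5 to 70.3 at 1000 nM. Most of that was GP1BB, which averaged 36.8, 58.7 and 53.7 FPKM. GP9 and PPBP of that list stayed at the floor, and the part of such cells in these changes was not tested.

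BCL11A and ZBTB7A, the repressors of the fetal genes, were not called in XG1 at either dose. BCL11A averaged 8.11 ± 1.33 FPKM in DMSO, 6.88 ± 0.973 at 100 nM and 5.78 ± 0.486 at 1000 nM, with changes of log2 -0.21 and -0.42 (adjusted p = 0.521 and 0.17). ZBTB7A averaged 7.72 ± 0.566, 7.23 ± 1.19 and 7.46 ± 1.09 FPKM, with changes of -0.09 and -0.05 (adjusted p = 0.798 and 0.896). LIN28B, an RNA-binding protein of fetal blood cells that favours gamma globin, fell by 1.19 at 100 nM (SE 0.28, adjusted p = 0.021) and by 1.01 at 1000 nM (SE 0.28, adjusted p = 0.031), to 4.30 and 4.73 FPKM with drug, against 10.6 FPKM in DMSO. MYB, a progenitor factor that keeps gamma globin low, averaged 70.8 ± 5.99 FPKM at 1000 nM and 120 ± 14.5 FPKM in DMSO and fell by 0.74 (adjusted p = 0.013).

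The other named regulators are cofactors and DNA-binding proteins tied to globin silencing. At 1000 nM IKZF1 fell by log2 0.84 (adjusted p = 0.025) and the DNA methyltransferase DNMT1 by 0.56 (adjusted p = 0.032). MBD3, of the NuRD repressor complex, fell by 0.64 (adjusted p = 0.046), a call that did not hold on the relative scale (adjusted p = 0.097). KLF3 and NR2C1 had changes of -0.57 and -0.42 at 1000 nM (adjusted p = 0.059 and 0.102). KLF3 was called at 100 nM, where it fell by 0.65 (adjusted p = 0.043).

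In AMO1, KLF1, GATA1 and GATA2 averaged under 1 FPKM in every group, and GATA1 did not leave the floor, while HBE1 stood at 99.3 to 116 FPKM in DMSO. BCL11A averaged 0.58 ± 0.12 FPKM in AMO1 at 1000 nM and 2.28 ± 0.353 FPKM in DMSO. Of the 24 regulators tested in AMO1, 12 fell at 100 nM and 19 at 1000 nM and none rose, where 29.5% and 65.7% of all tested genes fell. Relative to the median gene 6 fell and 1 rose at 100 nM, where 17.0% of all genes fell and 14.2% rose. At 1000 nM 8 fell and 2 rose on that scale, where 24.1% of all genes fell and 24.9% rose.

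**Figure D4:**
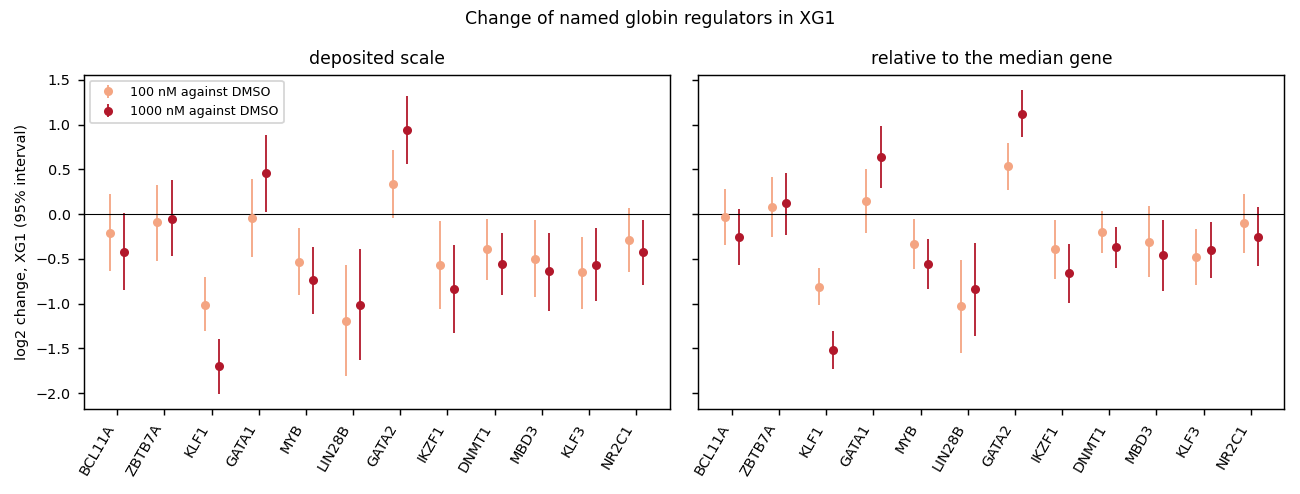
Log2 change in XG1 with its 95% interval for 12 named globin regulators at 100 nM (light) and 1000 nM (dark) against DMSO, on the deposited scale (left) and relative to the median gene (right). KLF1 lies lowest at 1000 nM (-1.7), GATA2 highest (0.94), and ZBTB7A lies close to 0 on both panels.

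A list of 21 genes for heme synthesis, globin assembly and genomic neighbours had 16 tested members in XG1. At 100 nM 3 fell and 1 rose, and at 1000 nM 5 fell and 1 rose, where 10.0% and 13.2% of all tested genes fell and 2.48% and 3.69% rose. Relative to the median gene 2 fell and 1 rose at 100 nM, where 7.25% of all genes fell and 7.32% rose. At 1000 nM 3 fell and 2 rose on that scale, where 10.3% of all genes fell and 9.59% rose. HBBP1, the pseudogene between HBG1 and HBD, had a larger fitted decrease than any tested globin gene. It stood at 145, 118 and 191 FPKM in DMSO, at 37.7, 48.3 and 16.9 FPKM at 100 nM and at 30.6, 20.6 and 35.3 FPKM at 1000 nM. Treated and DMSO libraries lay far apart. HBBP1 fell by log2 2.21 at 100 nM (SE 0.34, adjusted p = 0.003) and fell by 2.36 at 1000 nM (SE 0.34, 95% interval -3.10 to -1.62, adjusted p = 0.001). The intervals of HBBP1 and HBD overlap at both doses, and the difference between these genes was not tested. HBBP1 and HBD also overlap on the same strand in GENCODE, so their decreases may share reads. The sources used here do not state whether counting was stranded.

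Of the heme genes, UROS, which closes the porphyrin ring, rose by log2 0.79 at 1000 nM in XG1 (SE 0.16, adjusted p = 0.0079), with 75.9 ± 13.8 FPKM at 1000 nM and 43.2 ± 4.64 FPKM in DMSO. TFRC, the transferrin receptor that brings in iron, fell by 0.84 (adjusted p = 0.0079). SLC25A38, the mitochondrial glycine carrier, fell by 0.48 (adjusted p = 0.044), and NPRL3, whose introns hold the alpha-globin enhancers, by 0.68 (adjusted p = 0.023), neither on the relative scale (adjusted p = 0.169 and 0.063).

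ALAS2, the erythroid enzyme that starts heme synthesis, averaged 3.8 ± 1.69 FPKM at 1000 nM and 4.54 ± 0.779 FPKM in DMSO in XG1 (adjusted p = 0.615). EIF2AK1, the kinase that slows globin translation when heme is short, averaged 49.1 ± 3.78 FPKM at 1000 nM and 50.5 ± 2.86 FPKM in DMSO (adjusted p = 0.872). AHSP, the chaperone of free alpha chains, averaged 0.331 FPKM in XG1 in DMSO and was not tested, nor were the globins of other tissues MB, CYGB and NGB, whose group means were at most 0.35 FPKM. In AMO1 5 of 16 tested genes of this list fell and 1 rose at 100 nM, and 10 fell and 0 rose at 1000 nM, shares near the 29.5% and 65.7% of all genes that fell. Relative to the median gene 4 fell and 4 rose at 100 nM, where 17.0% of all genes fell and 14.2% rose. At 1000 nM 5 fell and 5 rose, of 15 tested, where 24.1% of all genes fell and 24.9% rose.

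The genes whose profile over the 18 libraries was most like that of HBG1, by the root mean square difference of log2(FPKM + 1) after centring each gene, were GAL (0.43), DLK1 (0.46), IFITM2 (0.46), GYPB (0.53) and LAPTM4B (0.54). For HBA2 they were IFITM2 (0.37), SAMSN1 (0.38), GAL (0.39), MGST2 (0.39) and LAPTM4B (0.47). Each of these was high in XG1 and under 1 FPKM in AMO1 in DMSO, so the measure mostly follows the difference between the lines. By the same measure HBA2 was 0.39 from HBG2 and 0.60 from HBG1, and HBG1 was 5.06 from HBE1.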

How the data were processed

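The data are 18 QuantSeq 3′ RNA libraries. Per the submitters' processing notes, HISAT2, Cuffnorm and the build hg19 were used. Versions, annotation and strand are not given in the sources used here. Deposited by the authors were FPKM for 26341 entries: 26249 genes and 92 spike-ins. Near-equal spike-in sums point to rescaling by them, which is an inference, not a stated step. Read depth is not known from FPKM, so precision comes from replicates (Spearman 0.931 to 0.974 within groups).

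Groups came from the labels. Each line's 9 libraries were fitted with limma 3.58.1 (R 4.3.3) on log2(FPKM + 1), with a mean-variance trend, for genes that reached 1 FPKM in 3 or more libraries. Tests were two-sided with Benjamini-Hochberg adjusted p under 0.05. Relative values were divided by median-ratio factors. The fit was tested on simulated data. Members and lists were chosen with earlier results of these data known. Named beside the members were 6 fixed regulators and 8 fixed heme, assembly and neighbour genes, the 6 and 4 others with the smallest adjusted p in XG1 at 1000 nM, and the 5 genes most like HBG1 and HBA2. A gene that this rule names is not reported here. Replicate numbers did not pair the samples.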

Additional observations from a re-analysis of the deposited data

Results flagged for a closer look

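For HBD, the delta globin gene, a difference between the responses of the lines passed the test, but it is not independent of the choice of the family, which was made on the same DMSO libraries. The difference of its log2 change, XG1 minus AMO1, was -2.35 at 100 nM (adjusted p = 0.0151, limma, 18 libraries) and -2.27 at 1000 nM (adjusted p = 0.0048). Both doses share the DMSO libraries. HBD held less in 6 of 6 treated XG1 libraries than in any DMSO library of that line, while the AMO1 groups overlapped at 1.63 to 10.6 FPKM. The difference stayed past the threshold with any single library left out, from -2.87 to -1.84 at 100 nM and from -2.78 to -1.76 at 1000 nM, with adjusted p of at most 0.0405 and 0.0128. On the relative scale it was -2.49 and -2.89 (adjusted p = 0.00249 and 0.000507). Lower responses in XG1 were called for 3.08% and 6.5% of all tested genes on that scale.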

How the results depend on the processing

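The calls of HBD, HBE1 and HBA2 in XG1 held at both doses under all 18 alternatives tried for each, with log2 changes of -1.83 to -1.43, -1.47 to -1.14 and -0.89 to -0.58 at 100 nM, and -1.85 to -1.56, -1.56 to -1.25 and -1.03 to -0.76 at 1000 nM. No called change turned its sign. Leaving out single libraries, the globin genes called numbered 5 to 6 at 100 nM, 5 to 6 at 1000 nM and 0 between the doses in XG1. In AMO1 they numbered 0 to 2, 2 to 3 and 1 to 2. AMO1 counts at 1000 nM and between the doses can include HBB, which passed the filter only through its treated libraries. Nothing is read from the part of HBB in any of these counts. All genes called numbered 571 to 1876 (1474 with every library), 1047 to 2619 (1994) and 2 to 82 (46) in XG1, and 1812 to 5057 (3386), 6067 to 7201 (7164) and 519 to 3437 (2482) in AMO1. With no filter on low values the calls were 674, 1153 and 9 in XG1, and 1944 at 100 nM and 521 between the doses in AMO1. Between the XG1 doses they were 115 on the relative scale, 94 with all 18 libraries and 4 with no variance trend. Between the AMO1 doses they were 637 on the relative scale and 1461 with a replicate block. In AMO1 the globin genes called were 0 on the relative scale at 100 nM and 1 with a 5 FPKM filter at 1000 nM. Between the AMO1 doses they were 1 on the relative scale, 1 with no filter and 1 with the 5 FPKM filter. With fewer genes under the stricter filter, low members drop out. The cause of the other shifts was not tested. HBM's share of alpha-like FPKM in XG1, with the floor subtracted, was 1.5e-05% at 100 nM and 2.64e-05% in DMSO. Same-numbered libraries deviated together with correlations of -0.04 to 0.16 in XG1 and -0.18 to 0.12 in AMO1, so the numbers were not taken to pair the samples. The block changed no globin count (5, 6 and 0 in XG1, 1, 3 and 2 in AMO1). HBB was among the 3 and the 2. Depth and strand are not known, and members under about 1 FPKM cannot be told from the floor.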
